A study of Mus musculus with 6 samples.

Results

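The 10 genes followed here carry the cyclic AMP signal of parathyroid hormone (PTH) into the nucleus, or belong to the coactivators recruited there. They were Creb1, Crem and Atf1 (DNA-binding factors), Crtc1, Crtc2 and Crtc3 (CREB coactivators), Crebbp and Ep300 (the acetyltransferases CBP and p300), and Cited1 and Cited2 (proteins that bind CBP and p300). The members were taken by gene symbol, and all 10 were found among the 39179 genes of the series. All 10 also passed the filter on low values, at least 0.5 RPKM (reads scaled to gene length and to the reads of the library) in at least 2 of the 6 libraries, as did 14264 genes in all. Cited1 passed through its 2 PTH libraries alone, being at or below 0.430 RPKM in the other 4, so at this filter it entered the tests only through the group where it was high.

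The cells were Ocy454, a mouse line with properties of osteocytes, used by the study as a single-cell subclone. They were grown to confluence at 33 °C, kept for 14 days at 37 °C, and treated for 4 h. The labels give the vehicle as PBS with 25 mM HCl, whereas the study's methods name DMSO as the solvent of compounds for cell culture. The PTH group received PTH 1-34 at 1 nM, and the third group received YKL-05-093, which inhibits the salt-inducible kinases (SIKs), at 0.5 µM. The study reports that this compound also targets other kinases in vitro, and that some genes responded to it in cells lacking SIK2 and SIK3. Each group had 2 libraries of RNA depleted of ribosomal RNA. The sources call them experimental duplicates, and nothing states that they came from separate cultures, so p-values measure only the spread between these libraries.

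As background, PTH binds a receptor coupled to Gsα, which raises cyclic AMP and activates protein kinase A. This kinase phosphorylates CREB and its relatives CREM and ATF1 at a site that recruits CBP and p300. In parallel, SIKs keep the CRTC proteins in the cytoplasm by phosphorylation and binding to 14-3-3 proteins, and loss of SIK activity lets CRTCs enter the nucleus and join CREB. These steps act on proteins, so the mRNA of a CREB pathway member need not move when the pathway is active. Crem is an exception among the DNA-binding factors, because an internal promoter with cyclic AMP response elements makes the repressor ICER. CITED1 and CITED2 bind a shared region of CBP and p300, and CITED2 is known for displacing hypoxia-inducible factors from it.

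Library totals ran from 17505798 to 27983585 reads, which puts a count of 3 reads for a gene of 2 kb at 0.0536 to 0.0857 RPKM. Mitochondrial genes took 11.6% to 16.5% of the reads. Of 12 osteocyte and osteoblast markers, 9 passed the filter, with a summed level of 533 to 630 RPKM in vehicle, 689 to 771 RPKM with PTH and 605 to 708 RPKM after YKL-05-093. The 3 that did not pass are markers of mature osteocytes: Sost had at most 3 reads in any library, Mepe at most 4 and Fgf23 at most 2. Of the osteocyte markers that passed, Dmp1 lay between 0.376 and 1.15 RPKM, Phex between 0.764 and 4.93 RPKM, and Pdpn between 53.1 and 171 RPKM. Of the 13 listed markers of other cell types in the table, 3 passed the filter (Ctsk, Cd68 and Col2a1). Their whole list summed to 78.8 to 90.9 RPKM in vehicle, 93.4 to 101 RPKM with PTH and 96.5 to 97.7 RPKM after YKL-05-093, with Cdh5 and Myod1 at 0 in all libraries. The part of these differences in the results below was not tested. In bulk RNA, fewer cells of a type and less RNA per cell cannot be told apart.

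The vehicle libraries stood apart from each other, and this touched several of the 10 genes. In the vehicle pair, genes past the filter differed by a median of 0.333 on the log2 scale without regard to sign, against 0.108 in the PTH pair and 0.103 in the YKL-05-093 pair. The vehicle difference followed gene length. Replicate 1 was lower than replicate 2 by a median of 0.30 on the log2 scale for genes under 2000 bases (difference of -0.30), and was higher by 0.59 for genes of 8000 bases and over. The PTH pair differed by a median of 0.06 in every length class, and the YKL-05-093 pair by -0.04 to 0.04. Among the 10 genes, vehicle replicate 1 exceeded replicate 2 most for Crebbp (log2 difference of 0.98, above that of 96.9% of the genes), Ep300 (0.90) and Creb1 (0.75). It was below replicate 2 for Crem (-0.28), Cited1 (-0.24) and Cited2 (-0.13). Crem therefore went against the long genes, although the length behind its RPKM was 7256 bases.

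**Figure D1:**
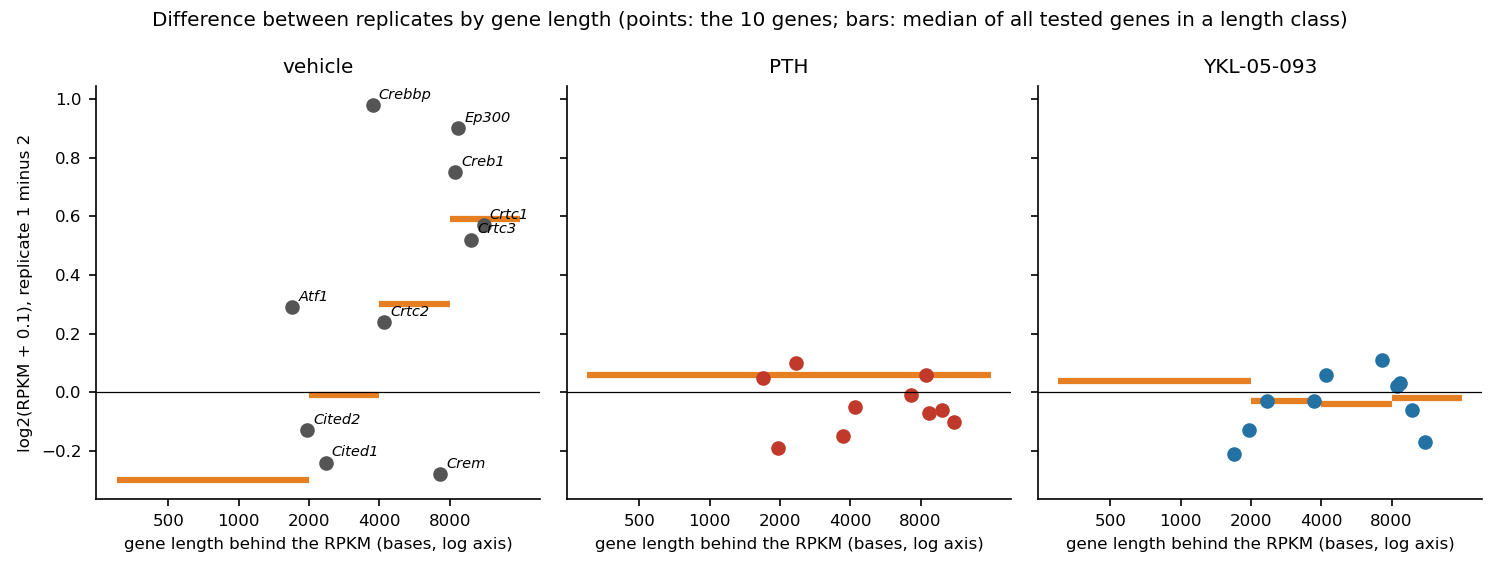
Difference between replicate 1 and replicate 2, as log2(RPKM + 0.1), against the gene length behind the RPKM (log axis) for vehicle, PTH and YKL-05-093. Points are the 10 genes and bars the median of all genes past the filter in a length class, the last of them open-ended; the length of Crebbp is 3738 bases or a whole multiple of it. The vehicle bars climb from -0.30 to 0.59 while the treated bars stay between -0.04 and 0.06, and Crebbp, Ep300 and Creb1 are the highest vehicle points.

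In vehicle, Cited2 was the most abundant of the 10 genes per kilobase, at 52.3 ± 3.34 RPKM (SD, n = 2), above 91.4% of the genes past the filter. Atf1 followed at 18.4 ± 2.62 RPKM, and then Crebbp (11.8 ± 5.52 RPKM), Creb1 (8.82 ± 3.21 RPKM), Ep300 (7.74 ± 3.37 RPKM) and Crtc2 (5.15 ± 0.627 RPKM). From Crebbp to Crtc2 each neighbour in this order overlapped the next in its vehicle libraries. Crtc3 (2.13 ± 0.568 RPKM) and Crtc1 (1.83 ± 0.529 RPKM) also overlapped. Crem (0.996 ± 0.151 RPKM) and Cited1 (0.301 ± 0.0474 RPKM) were the lowest, and the vehicle level of Cited1 lay under the filter.

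A gene was called when its adjusted p from limma was under 0.05 and its change over 2-fold. For PTH against vehicle, 2 of the 10 genes were called, Cited1 and Crem, both higher; Cited1 is the gene that was tested only through its PTH libraries. Of all 14261 genes tested, 1.91% were called in either direction and 1.09% were called higher. For YKL-05-093 against vehicle, 0 of the 10 genes were called by limma (2 had an unadjusted p under 0.05), against a background of 0.666% of 14255 genes. In the direct comparison of PTH against YKL-05-093, 1 of 10 was called, Cited1, against a background of 1.21%. The median log2 difference of the 10 genes was -0.14 for PTH and -0.18 for YKL-05-093, beside -0.03 and -0.04 over all genes tested.

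**Figure D2:**
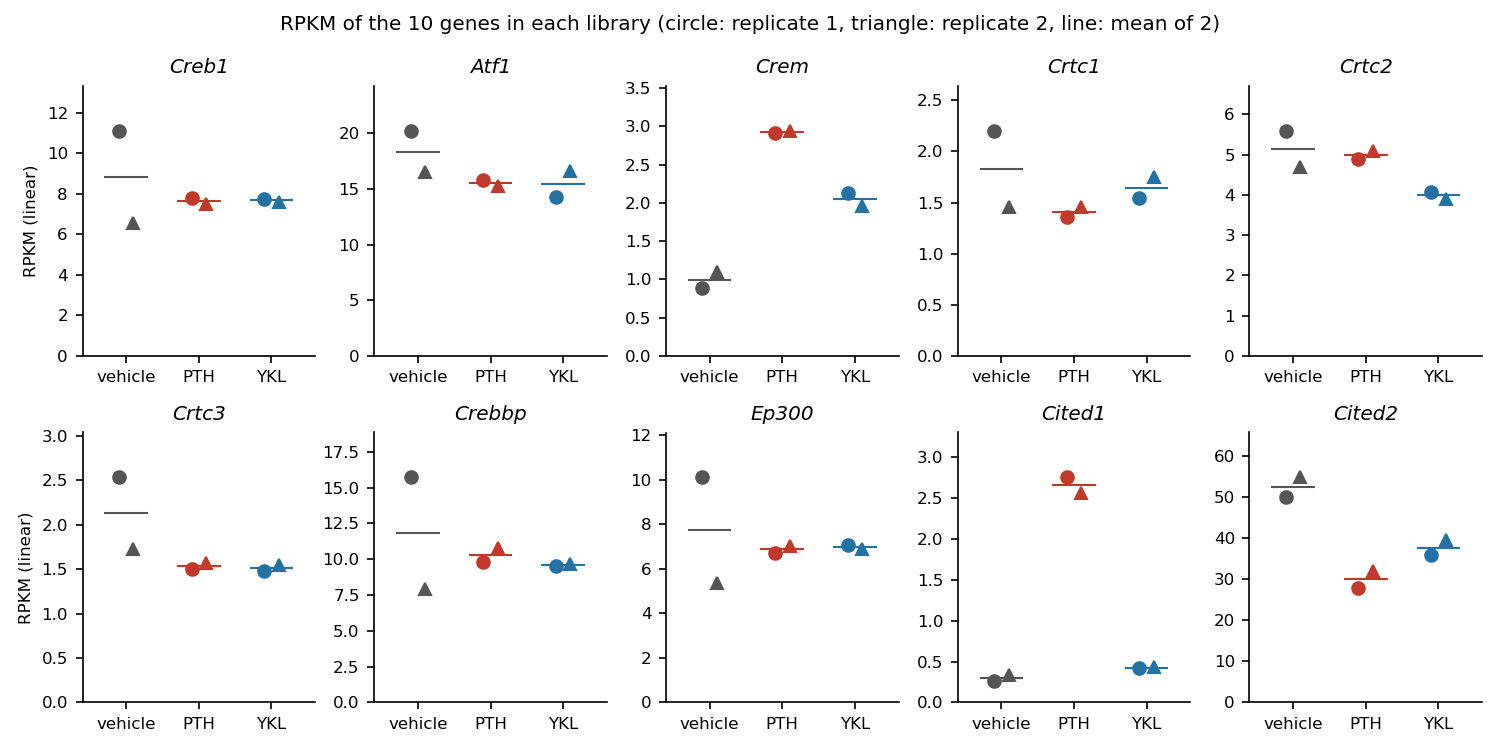
RPKM of each of the 10 genes in each of the 6 libraries, on linear axes that start at 0. Circles are replicate 1, triangles replicate 2 and lines the mean of 2 libraries. Cited1 is at 2.56 and 2.75 RPKM with PTH and at or below 0.430 RPKM elsewhere; Crem steps from vehicle to YKL-05-093 to PTH; the vehicle circles of Creb1, Crebbp and Ep300 lie far above the triangles.

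Among the DNA-binding factors, Crem was higher after both agents, and passed the test after PTH. Crem (ENSMUSG00000063889), on mouse chromosome 18 at 3266048-3337748 on the minus strand (GRCm38), encodes activators related to CREB and the ICER repressors. Its level was 0.890 and 1.10 RPKM in the vehicle libraries, 2.92 and 2.94 RPKM with PTH, and 2.13 and 1.96 RPKM after YKL-05-093. These levels rested on 113 and 224 reads in vehicle, 458 and 407 with PTH, and 313 and 295 after YKL-05-093. All 3 groups were thus ordered without overlap, with vehicle lowest and PTH highest.

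Crem rose 2.94-fold after PTH, a log2 difference of 1.47 on the log2(RPKM + 0.1) scale (standard error 0.17, adjusted p = 0.00791 from limma). After YKL-05-093 its mean was 2.05 times that of vehicle, and the log2 difference of 0.97 (standard error 0.18, 95% interval 0.55 to 1.40) did not pass (adjusted p = 0.0887 from limma). With vehicle left aside, PTH exceeded YKL-05-093 by 0.50 (standard error 0.10, adjusted p = 0.00263 from limma), which is under 2-fold and so not called. The YKL-05-093 result sat at both thresholds. Without vehicle replicate 2 its log2 difference was 1.11 with an adjusted p of 0.0282 from limma, and without vehicle replicate 1 it was 0.83 with 0.0962. After removal of the length trend, a setting added once the data had been seen, it was 1.10 with 0.0485, within a range of 0.00533 to 1.0 over all alternatives. The PTH call was lost without either PTH library, with the log2 difference at 1.47 or 1.48 and adjusted p-values of 0.238 and 0.264 from limma.

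The annotation gives Crem 39 transcripts from 26 start sites over 56670 bases, more starts than any other of the 10 genes. RPKM per gene sums them, so ICER could not be told apart from the longer forms. Exons of Gm6225 overlap exons of Crem on the opposite strand, and the sources used here do not say whether reads were counted by strand.

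Creb1 and Atf1 did not pass in any comparison. Creb1 (ENSMUSG00000025958, chromosome 1, 64532645-64604548, plus strand) encodes CREB itself. It had 11.1 and 6.55 RPKM in vehicle, 7.80 and 7.51 RPKM with PTH, and 7.72 and 7.62 RPKM after YKL-05-093. Both treated pairs lay between the vehicle libraries. The log2 difference was -0.15 after PTH (95% interval -0.74 to 0.43, adjusted p = 0.854 from limma) and -0.15 after YKL-05-093 (interval -0.75 to 0.44, adjusted p = 0.919). Its sign hung on the vehicle library used: against vehicle replicate 2 alone the PTH difference was 0.22, and against replicate 1 alone it was -0.53. PTH and YKL-05-093 were compared without vehicle, and there the difference of Creb1 was 0.00 with a 95% interval of -0.15 to 0.14.

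Atf1 (ENSMUSG00000023027, chromosome 15, 100227819-100261244, plus strand) encodes a close relative that pairs with CREB. It was at 20.2 and 16.5 RPKM in vehicle, 15.8 and 15.3 RPKM with PTH, and 14.3 and 16.6 RPKM after YKL-05-093. The PTH libraries were below both vehicle libraries, but by less than the test could separate (log2 difference of -0.23, limma adjusted p = 0.666). The YKL-05-093 libraries overlapped vehicle (-0.25, adjusted p = 0.815).

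Within the summed RPKM of the 3 factors, Crem took 2.76% and 4.56% in vehicle, 11% and 11.4% with PTH, and 8.81% and 7.50% after YKL-05-093. Atf1 held the largest share in all libraries, between 59.2% and 68.3%. The family sum was 25.8 to 26.6 RPKM after PTH, inside the vehicle range of 24.2 to 32.2 RPKM. The Crem share, which restates the Crem levels given above, separated the groups where the family total did not.

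**Figure D3:**
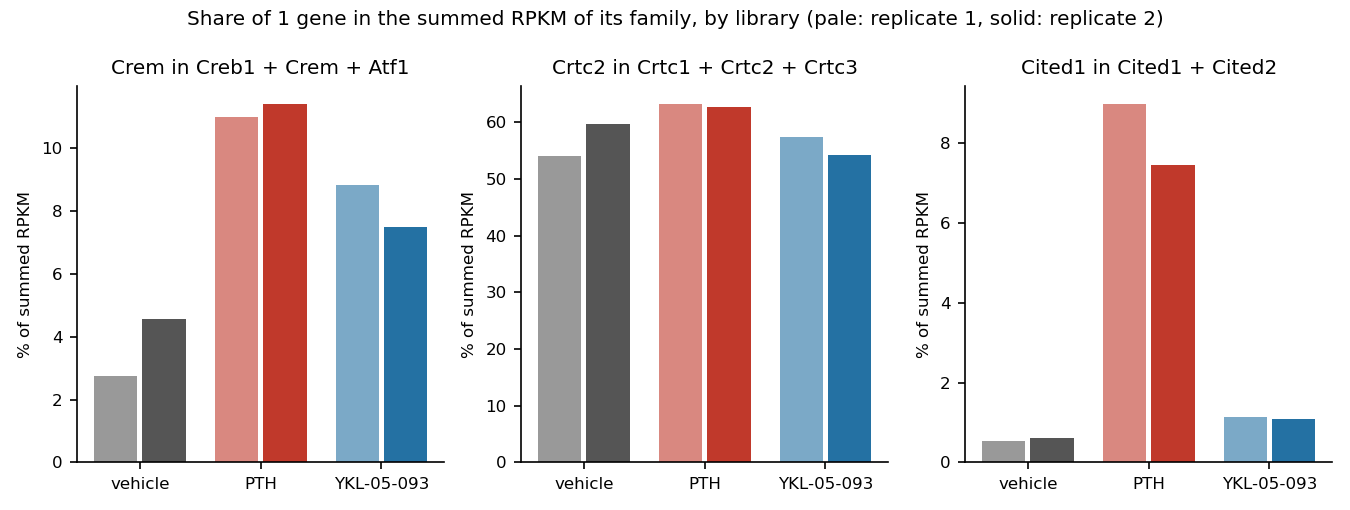
Share of Crem in the summed RPKM of Creb1, Crem and Atf1, of Crtc2 in that of the 3 Crtc genes, and of Cited1 in that of Cited1 and Cited2, in percent, with 1 bar per library (pale: replicate 1, solid: replicate 2). Crem is lowest in vehicle (2.76% and 4.56%) and highest after PTH (11% and 11.4%), Crtc2 holds over 54% in every library, and Cited1 reaches 8.99% and 7.45% after PTH only.

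The CRTC coactivators carry the signal from the SIKs to CREB. None of the 3 genes passed against vehicle with either agent. Crtc2 (ENSMUSG00000027936, chromosome 3, 90254163-90264125, plus strand) was the most abundant of them, with 5.59 and 4.70 RPKM in vehicle, 4.90 and 5.09 RPKM with PTH, and 4.07 and 3.91 RPKM after YKL-05-093. The PTH libraries fell between the vehicle libraries, and the YKL-05-093 libraries lay below all others. The difference from vehicle was -0.04 after PTH (95% interval -0.43 to 0.35, adjusted p = 0.958 from limma) and -0.35 after YKL-05-093 (interval -0.75 to 0.04, adjusted p = 0.646). Against YKL-05-093, PTH was higher by 0.32 (standard error 0.09, adjusted p = 0.0426 from limma), under the 2-fold limit. That adjusted p ran from 0.0288 to 0.586 over the alternatives, and was above 0.05 without any 1 of the 4 libraries.

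Crtc3 (ENSMUSG00000030527, chromosome 7, 80586627-80688877, minus strand) had 2.53 and 1.73 RPKM in vehicle, 1.5 and 1.57 RPKM with PTH, and 1.48 and 1.55 RPKM after YKL-05-093. Both treated pairs lay below the vehicle pair without overlap. The log2 differences of -0.43 (standard error 0.21, adjusted p = 0.442 from limma) and -0.44 (standard error 0.21, adjusted p = 0.644) did not pass. Crtc1 (ENSMUSG00000003575, chromosome 8, 70382355-70439579, minus strand) had 2.20 and 1.46 RPKM in vehicle, 1.36 and 1.46 RPKM with PTH, and 1.54 and 1.75 RPKM after YKL-05-093. Its groups overlapped against vehicle, and the differences were -0.32 (adjusted p = 0.619 from limma) and -0.12 (adjusted p = 0.927). Both genes are among the long ones in which vehicle replicate 1 was high, by 0.52 for Crtc3 and 0.57 for Crtc1 on the log2 scale. Without vehicle replicate 1, the PTH differences were -0.17 and -0.04. The weight of Crtc2 within the family was 54.1% and 59.6% in vehicle, 63.2% and 62.7% with PTH, and 57.4% and 54.2% after YKL-05-093.

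CBP and p300 acetylate histones at the sites where CREB binds, and they were the members most affected by the vehicle replicates. Crebbp (ENSMUSG00000022521, chromosome 16, 4081328-4213997, minus strand) had 15.7 and 7.91 RPKM in vehicle, 9.77 and 10.8 RPKM with PTH, and 9.50 and 9.69 RPKM after YKL-05-093. Ep300 (ENSMUSG00000055024, chromosome 15, 81585351-81652077, plus strand) had 10.1 and 5.36 RPKM in vehicle, 6.71 and 7.03 RPKM with PTH, and 7.06 and 6.90 RPKM after YKL-05-093. For both genes all 4 treated libraries fell between the vehicle libraries.

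The PTH differences were -0.12 for Crebbp (95% interval -0.82 to 0.59, adjusted p = 0.916 from limma) and -0.10 for Ep300 (interval -0.76 to 0.56, adjusted p = 0.924). Those for YKL-05-093 were -0.22 for Crebbp (adjusted p = 0.902) and -0.08 for Ep300 (adjusted p = 0.971 from limma). Their direction turned with the vehicle library. Against vehicle replicate 2 alone, PTH was higher by 0.37 for Crebbp and 0.35 for Ep300, and against replicate 1 alone the differences were -0.61 and -0.55. In the comparison without vehicle, the 95% interval of the difference was -0.07 to 0.27 for Crebbp and -0.17 to 0.12 for Ep300.

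Crebbp took the larger part of the summed level of both acetyltransferases in every library. Its share was 60.8% and 59.6% of the summed RPKM in vehicle, 59.3% and 60.6% with PTH, and 57.3% and 58.4% after YKL-05-093, although the sum itself was 25.8 RPKM in vehicle replicate 1 and 13.3 RPKM in replicate 2.

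The CITED genes held the largest rise and the largest fall in mean level among the 10 genes with PTH, and the fall did not pass. Cited1 (ENSMUSG00000051159, chromosome X, 102247381-102252181, minus strand) encodes a transactivator without a DNA-binding domain that acts through CBP and p300. It had 0.267 and 0.334 RPKM in vehicle, 2.75 and 2.56 RPKM with PTH, and 0.419 and 0.430 RPKM after YKL-05-093. The reads behind these levels were 11 and 22 in vehicle, 140 and 115 with PTH, and 20 and 21 after YKL-05-093. The PTH libraries stood clear of all others, and the YKL-05-093 libraries were narrowly above vehicle at counts near those of vehicle replicate 2.

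Cited1 rose 8.84-fold after PTH, the group through which it passed the filter, a log2 difference of 2.79 on the log2(RPKM + 0.1) scale (standard error 0.24, adjusted p = 0.00227 from limma). After YKL-05-093 the difference of 0.39 did not pass (standard error 0.33, 95% interval -0.39 to 1.18, adjusted p = 0.849 from limma). The agents differed directly, with PTH 6.26-fold above YKL-05-093 (log2 difference of 2.39, standard error 0.21, adjusted p = 1.25e-06 from limma). Leaving out either PTH library kept the log2 difference from vehicle at 2.74 or 2.84 but raised its adjusted p to 0.0667 or 0.0615, and that from YKL-05-093 at 2.34 or 2.44 with 0.144 or 0.130. In these settings the lone PTH library is assumed to vary like the other group. With the filter at 0.1 RPKM, which Cited1 passes in all 6 libraries, the adjusted p was 0.0033 against vehicle and 7.18e-05 against YKL-05-093 from limma, and without any filter 0.0555 and 0.0318, over ranges of 1.28e-16 to 0.0667 and 6.49e-22 to 0.144 across the alternatives.

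Cited2 (ENSMUSG00000039910, chromosome 10, 17723218-17725674, plus strand), the abundant relative, had 50 and 54.7 RPKM in vehicle, 27.9 and 31.9 RPKM with PTH, and 35.9 and 39.4 RPKM after YKL-05-093. It was read 1720 and 3009 times in vehicle, 1184 and 1195 times with PTH, and 1432 and 1608 times after YKL-05-093. The 3 groups were ordered without overlap, vehicle highest and PTH lowest, which is the reverse of the order of Crem. The mean after PTH was 0.571 of vehicle, a log2 difference of -0.81 (standard error 0.17, 95% interval -1.20 to -0.42) with an adjusted p of 0.0642 from limma. After YKL-05-093 the mean was 0.720 of vehicle (difference of -0.47, standard error 0.16, adjusted p = 0.426). Between the agents, PTH was lower by 0.34 (difference of -0.34, adjusted p = 0.0113 from limma), under the 2-fold limit. Cited2 thus missed both limits of a call after PTH, the adjusted p and the fold. For PTH against vehicle, 1 fit of all 6 libraries gave an adjusted p of 0.0154 from limma. Removal of the length trend gave 0.00729, and the fit without a filter 0.175. The change of Cited2 stayed under 2-fold in every alternative, so it was called in none.

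Together, Cited1 and Cited2 summed to 50.2 and 55.0 RPKM in vehicle, 30.6 and 34.4 RPKM with PTH, and 36.3 and 39.9 RPKM after YKL-05-093. Cited1 made up 0.532% and 0.607% of that sum in vehicle, 8.99% and 7.45% with PTH, and 1.15% and 1.08% after YKL-05-093. Cited2 thus remained over 90% of the family transcripts per kilobase in all libraries (91.0% at the lowest).

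The DNA upstream of the CITED genes is shown because Cited1 had the largest difference of the 10 genes and Cited2 is its relative with the opposite sign. Sequences and start sites are from RefSeq (GRCm38.p6), with windows of 300 bases from 250 before to 50 after a start, and 8 of the 10 genes matched an entry, with 10 windows. Capitals mark a match to a searched motif, sought on both strands. The full cyclic AMP response element (CRE) was searched as TGACGTCA. The core of the CRE was searched as TGACG, which every full CRE also holds. A TATA box was searched as TATAAA.
Cited1, 250 bases before its most upstream start, chrX:102252182-102252431, minus strand: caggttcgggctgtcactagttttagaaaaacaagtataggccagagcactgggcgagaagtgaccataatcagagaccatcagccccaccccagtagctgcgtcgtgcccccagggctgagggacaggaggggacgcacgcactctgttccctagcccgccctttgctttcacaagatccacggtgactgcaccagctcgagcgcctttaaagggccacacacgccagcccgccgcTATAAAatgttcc
Cited2, 240 bases before its first exon, chr10:17722978-17723217, plus strand: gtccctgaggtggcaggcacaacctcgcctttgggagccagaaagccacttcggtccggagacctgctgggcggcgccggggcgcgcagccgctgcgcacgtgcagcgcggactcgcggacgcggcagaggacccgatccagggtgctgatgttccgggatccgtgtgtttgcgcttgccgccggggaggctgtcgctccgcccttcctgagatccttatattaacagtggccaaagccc
The CRE core occurred in the windows of 2 of the 8 genes that had one, shown as 30 bases around the match. Crem and Crtc2 had no window and were not searched. Of the 250 bases before the start in these windows, 170 lay in annotated exons for Cited1 and 40 for Atf1.
Cited1, at base -33 from the most downstream of its 3 starts, chrX:102250792-102250821, minus strand: ccaaagtcgcgcTGACGcggagaccccgtg
Atf1, at base -90, chr15:100227757-100227786, plus strand: gtgaccacgcggTGACGcagcacgccggcg

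The full CRE was in 0 of the 10 windows of these genes and in 1.79% of all 32851 windows, and the core was in 20.8% of all windows. Cited1 held a TATA box in 2 windows, starting at base -13 from the first start and at -115 from the second, beside 13.6% of all windows with one. The Cited1 window with the core is thus not the one with either TATA box. These are matches of letters in windows near a start, and their part in the differences was not tested.

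**Figure D4:**
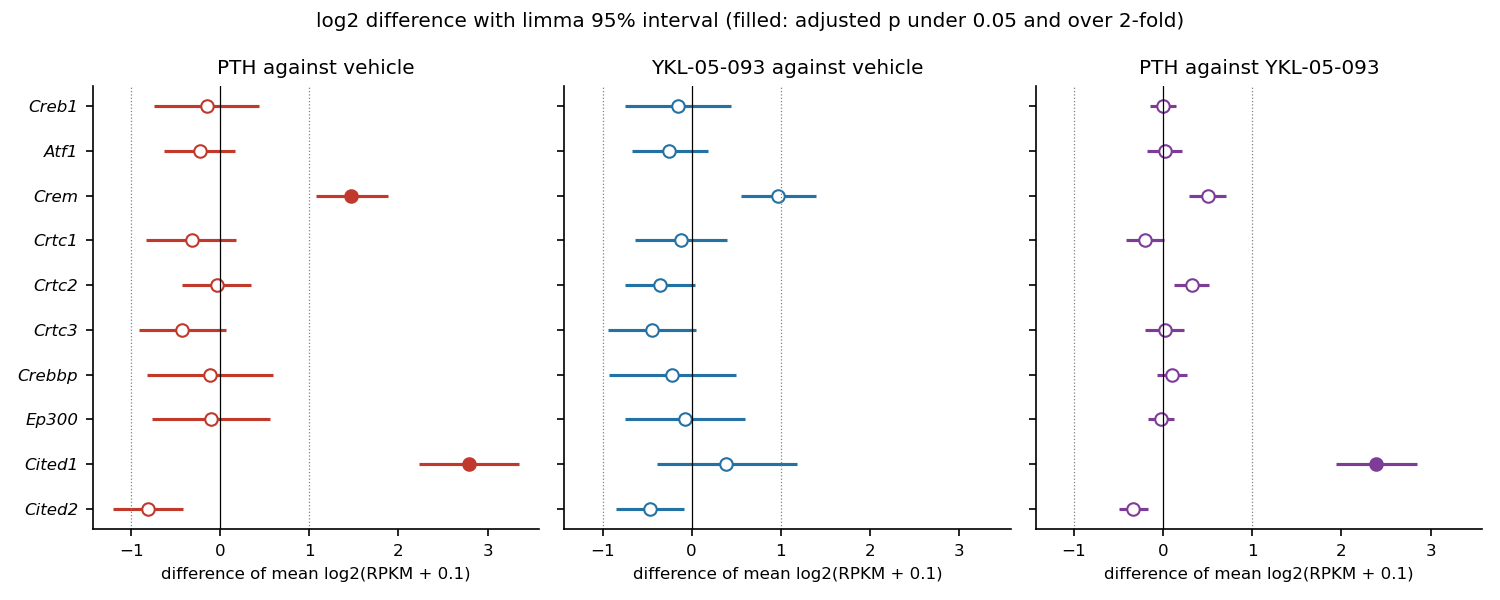
Difference of mean log2(RPKM + 0.1) with its 95% interval from limma for the 10 genes in PTH against vehicle, YKL-05-093 against vehicle and PTH against YKL-05-093. Filled points were called, and dotted lines mark a 2-fold change. Cited1 (2.79 and 2.39) and Crem (1.47) are the filled points, and intervals are narrower in the comparison without vehicle.

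By groups that do not overlap, 2 of the 10 genes were higher and 3 lower after PTH (Crem and Cited1; Atf1, Crtc3 and Cited2), where 19.1% and 24.0% of all genes tested were. After YKL-05-093, 2 were higher and 3 lower (Crem and Cited1; Crtc2, Crtc3 and Cited2), beside 15.7% and 22.1%. Both comparisons use the same vehicle libraries. In PTH against YKL-05-093, 4 were higher (Crem, Crtc2, Cited1 and Crebbp) and 2 lower (Crtc1 and Cited2), beside 26.3% and 23.7%, and 4 of 10 had an adjusted p under 0.05 from limma at any fold, where 9.96% of all genes did. Those 4 were Cited1, Crem, Cited2 and Crtc2.

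Of 19 nearest neighbours past the filter, on either side, 1 was called for PTH (1.91% of all genes tested were) and 0 for YKL-05-093 by limma (0.666%). The 1 was Gm20655, which starts 67304 bases from the start of Cited2 and differed by -1.57 (adjusted p = 0.0126 from limma). Next to Cited1, Hdac8 differed by 0.17 and Rps4x by 0.16 with PTH, and neither was called.

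Among 885 genes past the filter with a PTH difference over 2-fold, those whose log2 level followed Crem most closely over the 6 libraries were Cxcl1 (Pearson r of 0.9996), Krt33b (0.9967) and Gm16617 (0.9937). Cxcl1, a neutrophil chemokine, averaged 7.10 RPKM in vehicle, 46.7 RPKM with PTH and 25.5 RPKM after YKL-05-093, the order seen for Crem. Closest to Cited1 were Smim3 (0.9943), Il4ra (0.9932) and Mgp (0.9930). Mgp, the matrix inhibitor of mineralization, averaged 164 RPKM in vehicle, 692 RPKM with PTH and 193 RPKM after YKL-05-093, so it too was high in the PTH libraries and close to vehicle after YKL-05-093. These correlations describe 6 libraries that fall into 3 groups, and the genes were picked for likeness among genes that differ after PTH.

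Counts of calls in the lists of regulators and relatives stand beside 1.91% of all genes for PTH, 0.666% for YKL-05-093 and 1.21% between the agents, and with lists this short they are not set apart from those shares. The list of 29 regulators of CREB or CRTCs, direct or upstream, held kinases, phosphatases, 14-3-3 proteins, and regulatory subunits and inhibitors of protein kinase A. Of these 29 genes, 27 were tested, and 1 was called higher after PTH, with a median log2 difference of -0.21. That gene was Camk4, a kinase of the CREB activation site. Its level was 0.742 and 0.458 RPKM in vehicle, 1.81 and 1.63 RPKM with PTH, and 0.832 and 0.845 RPKM after YKL-05-093 (PTH difference of 1.41, adjusted p = 0.0283 from limma). After YKL-05-093, 1 of 27 was called, Sik1, the SIK gene that is itself a CREB target. Sik1 was at 1.68 and 1.22 RPKM in vehicle, 2.81 and 2.40 RPKM with PTH, and 4.31 and 4.14 RPKM after YKL-05-093 (YKL-05-093 difference of 1.49, adjusted p = 0.0318 from limma). The catalytic subunit gene of protein kinase A, Prkaca, stayed between 74.2 and 79.7 RPKM in the 6 libraries. Other subunit genes moved more, in either direction, and none was called. With PTH, Prkar2b averaged 12.8 RPKM against 20.2 RPKM in vehicle, and Prkar1a 56.4 RPKM against 45.5 RPKM. Of 6 coactivator partners of CBP and p300, 0 were called in any comparison, with a median of -0.14 with PTH and -0.12 after YKL-05-093.

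Of 12 relatives of CREB and CITED, 8 were tested and 0 were called against vehicle with either agent. Between the agents, Creb5, a CRE-binding relative, was called lower after PTH, at 0.443 and 0.484 RPKM against 0.992 and 1.26 RPKM after YKL-05-093 (difference of -1.11, adjusted p = 0.00492 from limma). Vehicle held 0.829 and 0.483 RPKM, overlapping the PTH pair and below the YKL-05-093 pair. Only vehicle replicate 1 and the YKL-05-093 libraries reached 0.5 RPKM. Without the YKL-05-093 group, where it was high, Creb5 would thus not have passed the filter. It had 29 and 28 reads with PTH, and 61 and 79 after YKL-05-093.

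Of 29 listed targets of CREB, 22 were tested, Sik1 among them, which is also in the list of regulators. After PTH, 9 were called higher and 0 lower, where 1.91% of all genes tested were called, with a median log2 difference of 0.63 beside -0.03 over all genes. After YKL-05-093, 10 were called higher and 1 lower, where 0.666% of all genes were, with a median of 1.01 beside -0.04. The list was written from general knowledge with earlier results of these data known, so its count is not independent evidence. Of the called targets, Tnfsf11, Pde4b and Nr4a3 were below 0.5 RPKM in vehicle and entered the tests only through treated libraries. Nr4a3 did so through its YKL-05-093 libraries alone (1.17 and 1.48 RPKM), being at or below 0.268 RPKM in vehicle and with PTH.

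The 6 with the largest rise after PTH were Tnfsf11 (the osteoclast cytokine RANKL, 4.82), Pde4b (2.56) and Pde4d (2.17, both phosphodiesterases that degrade cyclic AMP), Nr4a2 (an orphan nuclear receptor, 2.39), Fos (an AP-1 subunit, 1.90) and Cebpb (a leucine zipper factor, 1.58), each as a log2 difference from limma. Tnfsf11 went from 0.358 and 0.272 RPKM in vehicle to 12.6 and 10.6 RPKM with PTH and 3.09 and 2.57 RPKM after YKL-05-093. The 6 with the largest rise after YKL-05-093 were Nr4a1 (3.18), Nr4a2 (2.96), Tnfsf11 (2.82), Pde4b (2.5), Rgs2 (a regulator of G-protein signalling, 2.43) and Nr4a3 (2.30). The gene that fell was Egr1, an immediate-early zinc finger factor, at 6.78 and 6.08 RPKM in vehicle, 3.12 and 4.40 RPKM with PTH, and 0.873 and 1.55 RPKM after YKL-05-093 (YKL-05-093 difference of -2.36, adjusted p = 0.02 from limma).

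Between the agents, Tnfsf11 (2.00) and Egr1 (1.59) were called higher with PTH, and Nr4a3 (-2.06), Nr4a1 (-1.93) and Rgs2 (-1.0) lower. The target list thus held genes on either side, with a median difference of 0.01 between the agents. The Cited1 difference on the PTH side was 2.39.

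**Figure D5:**
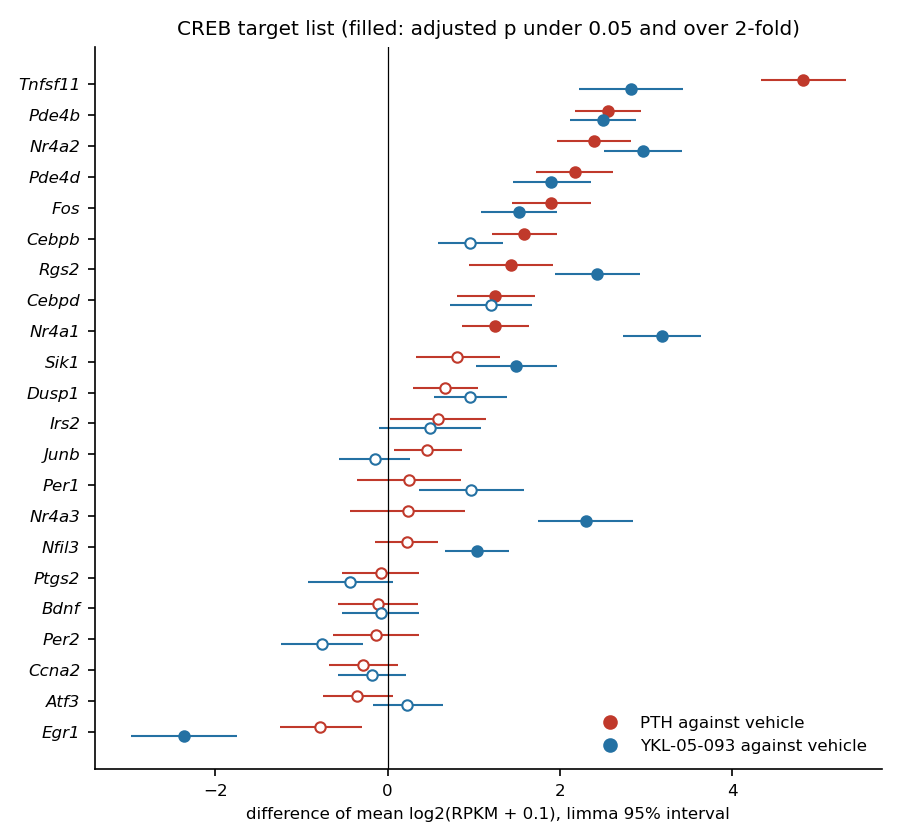
Difference of mean log2(RPKM + 0.1) from vehicle with its 95% interval from limma for the 22 tested genes of the CREB target list, after PTH (red) and after YKL-05-093 (blue), ordered by the PTH value. Filled points were called. Tnfsf11 has the largest PTH value (4.82), Nr4a1 the largest YKL-05-093 value (3.18), and Egr1 the lowest (-2.36); both agents share the vehicle libraries.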

How the data were processed

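RNA from 6 libraries of Ocy454 cells (3 groups of 2, assigned by the labels) was analysed from the deposited table. Per the labels and the methods, the authors depleted ribosomal RNA, made directional libraries, aligned with STAR (mm10/GRCm38) and made gene counts with HTSeq and Ensembl release 75; CASAVA 1.7 is named in the submitters' processing notes. The authors deposited RPKM values, not logged and, beyond the division by the reads of each library, not scaled between libraries.

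Whole reads were worked back from the steps of the RPKM values, with gene lengths found up to a common factor; all 26214 genes above 0 came out whole at a relative tolerance of 1e-06, a result the search was set to reach. Because RPKM are not counts, limma 3.58.1 (R 4.3.3) was fitted to log2(RPKM + 0.1), separately on the 4 libraries of each of the 3 comparisons, over genes that reached 0.5 RPKM in 2 or more of 6 libraries, with the variance trended on mean log2 reads and Benjamini-Hochberg adjustment over all genes tested. Calls needed an adjusted p under 0.05 and a log2 difference beyond 1; the pseudocount understates changes of low genes. An exact permutation test of 2 against 2 cannot go below p = 0.333. The fit was tested on simulated data. These had the same spread in every group and no length trend, so they do not cover a pair like the vehicle libraries.

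The members and lists were chosen with earlier results of these data known. All members are named; from each list, at most 6 called genes per direction by size of change, and for each called member the 3 genes most correlated with it. Pde4d has 2 identifiers, of which the one with most reads was used. Alternatives were another pseudocount (0.01 and 1), other filters, 1 fit of 6 libraries, another trend, median-of-ratios scaling, voom on recovered reads, a replicate block, each library left out, no limit on the fold change, and, added after the data were seen, removal of the length trend. Positions are from GENCODE M21 (GRCm38). No sequence of Crem or of any protein was used here.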

Additional observations from a re-analysis of the deposited data

How the results depend on the processing

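Of the 10 genes, 2 were called for PTH against vehicle; 1 was called with a pseudocount of 1 and 1 with the variance trended on the mean value (Crem was lost in both, at a log2 difference of 0.98, and at an adjusted p of 0.0516), 0 without a filter, and 0 to 2 with 1 library left out. For YKL-05-093, 0 were called, 1 after the length trend was removed (Crem), and 0 to 1 with 1 library left out. For PTH against YKL-05-093, 1 was called, 4 without a limit on the fold change, and 0 to 1 with 1 library left out. Genes called in the 4 pathway lists numbered 10 for PTH (0 without a filter, 2 to 11 with 1 library left out), 11 for YKL-05-093 (0 without a filter, 2 with the trend on the mean, 4 to 14 with 1 library left out) and 6 between the agents (3 with a pseudocount of 1, 23 without a fold limit, 0 to 5 with 1 library left out). Calls over all genes numbered 272 for PTH (0 without a filter, 160 with the trend on the mean, 440 with the block, 14 to 669 with 1 library left out), 95 for YKL-05-093 (0, 6, 215 and 11 to 321) and 172 between the agents (0 to 155 with 1 library left out, 102 in 1 fit of 6 libraries, 1420 without a fold limit). Without a filter, 2343 and 1734 genes had an unadjusted p under 0.05 by limma.

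Removal of the length trend turned the sign of differences near 0, none of them called: Creb1 (0.01), Crtc2 (0.02) and Ep300 (0.07) for PTH, and Crtc1 (0.06) and Ep300 (0.08) for YKL-05-093. With 1 library left out, signs turned for Creb1 (-0.53 to 0.22), Crtc2 (-0.16 to 0.09), Crebbp (-0.61 to 0.37) and Ep300 (-0.55 to 0.35) under PTH, for Creb1 (-0.53 to 0.22), Crtc1 (-0.40 to 0.16), Crebbp (-0.71 to 0.28) and Ep300 (-0.53 to 0.38) under YKL-05-093, and for Atf1 (-0.09 to 0.12), Crtc3 (-0.02 to 0.05) and Ep300 (-0.06 to 0.01) between the agents. The cause was not tested. Libraries with the same replicate number did not deviate together (correlations of -0.03, -0.05 and -0.05 over 14264 genes). Such correlations cannot show whether libraries of the same number were prepared together. With the replicate block, 2, 0 and 1 of the 10 genes were called, as without it. Adjusted p-values from limma moved either way with the block. Under PTH they went from 0.0642 to 0.0206 for Cited2 and from 0.666 to 0.842 for Atf1. For Crem under YKL-05-093 the change was from 0.0887 to 0.00533, at a log2 difference of 0.97.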
